A study of Mus musculus with 104 samples.

Results

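The comparison concerned liver DNA methylation at postnatal day 5 (P5) and day 20 (P20), measured by reduced representation bisulfite sequencing (RRBS). RRBS reads the DNA fragments released by the enzyme MspI after bisulfite treatment, and gives for each CpG the percentage of reads that were methylated. The members were 9 of the 104 samples of the series: 4 P5 libraries (replicates 1, 3, 4 and 5) and 5 P20 libraries (replicates 1 to 5), each labelled as liver of a C57BL/6 mouse, the substrain being C57BL/6J in the study's methods. All were whole-liver DNA of mice kept in standard housing, with no treatment named, and the labels differ by age alone. The labels name neither the sex of these mice nor the pool in which each library was bisulfite treated. CpGs of chromosome Y, its unplaced sequence included, had values in all 9 libraries, at 45 to 47 CpGs at P5 and at 22 to 47 at P20. Of 70259 CpGs in the liver table, 66184 had at least 3 values at each age and were tested, and 12186 of these had a value in every library. Whole liver is a mixture of cells, so a changed share of a cell type and a changed methylation within cells cannot be told apart.

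Methylation of cytosine in CpGs is copied when DNA replicates and is removed either by failure to copy it or by the TET enzymes, which oxidise it. It is commonly low at active enhancers and promoters, so that the methylation of intronic and intergenic CpGs often differs between cell types. The fetal liver is a site of blood formation, which the liver loses gradually after birth, while hepatocytes take on the metabolic and secretory functions of the adult organ.

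Methylation of the liver changed in both directions between P5 and P20, and the changes were clearest where neighbouring CpGs were read together. Chains of tested CpGs no more than 100 bp apart, with at least 3 CpGs each, gave 7395 regions that held 30934 of the CpGs. By limma, a linear model with moderated variances fitted over all regions, 167 regions gained methylation (2.26% of all tested) and 92 lost it (1.24%), where a call needed an adjusted p (Benjamini-Hochberg) no greater than 0.1 and means more than 5 percentage points apart. The smallest adjusted p was 0.000778. The P5 and P20 libraries did not overlap in 503 regions that were higher at P20 (6.8% of all) and in 194 that were lower (2.62%). The median over all regions was 2.46 points higher at P20, and 64.7% of regions lay on the side of a gain.

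The called changes were large. The median size was 26.0 points among gains and 26.2 points among losses, against 5.23 points over all regions, and 49 gains and 32 losses exceeded 30 points. Leaving out 1 library in turn gave 106 to 252 called regions. The count fell to 106 without P5 replicate 1, to 109 without P5 replicate 5 and to 127 without P20 replicate 3. Of the 259 called regions, 77 (45 gains and 32 losses) were called whichever library was left out, and all 259 kept their direction. Among P20 libraries, replicate 1 had values at only 33.8% of the tested CpGs and replicate 4 at 63.5%, against 88.2 to 99.9% in the other 7 libraries. With P20 replicates 2, 3 and 5 only, 177 regions were called, 119 of them gains.

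**Figure D1:**
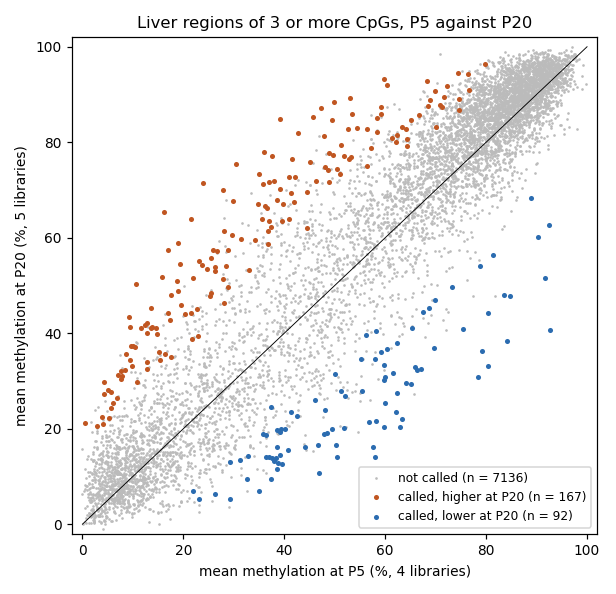
Each point is 1 of 7395 liver regions of 3 or more CpGs, with its mean methylation at P5 on the horizontal axis and at P20 on the vertical axis, both in percent. Orange points are the 167 called gains, blue points the 92 called losses, and the line marks equal methylation. Called gains start mostly from low and intermediate levels, and called losses from intermediate and high ones.

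Gains and losses started from different levels. Called gains had a median of 33.6% at P5 and 63.5% at P20, while called losses went from a median of 55.7% to 23.7%. Among the 1415 regions under 20% methylated at P5, 53 gained and 0 lost. Among the 2546 regions at 80% or above, 0 gained and 11 lost. Starting level limits the possible direction, so these counts describe where on the scale the calls lie.

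Regions are named below by the gene they lie in or, outside genes, by the nearest transcription start of a coding gene. Sequences on the plus strand of mm9 are shown first, because they are the DNA whose methylation moved. They are a selection from the named regions and the called regions of the gene lists. Capitals mark the CpGs that were measured and make up each region, with 10 bases on each side. Counts of CpGs are counts of measured cytosines, so a CpG read on both strands counts once per strand.
Stat5b, coding exon, chr11:100652052-100652184: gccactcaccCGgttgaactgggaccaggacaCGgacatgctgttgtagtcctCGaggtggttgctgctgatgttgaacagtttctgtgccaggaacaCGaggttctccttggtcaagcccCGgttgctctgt
Mtss1, intron, chr15:58830672-58830808: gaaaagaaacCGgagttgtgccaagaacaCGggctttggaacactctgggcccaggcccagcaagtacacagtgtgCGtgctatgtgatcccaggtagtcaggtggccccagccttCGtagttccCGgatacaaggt
Arid2, coding exon, chr15:96201775-96201904: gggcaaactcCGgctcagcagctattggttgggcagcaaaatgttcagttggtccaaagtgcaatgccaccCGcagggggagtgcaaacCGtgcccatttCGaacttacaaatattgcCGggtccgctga
Fgg, coding exon, chr3:82816726-82816919: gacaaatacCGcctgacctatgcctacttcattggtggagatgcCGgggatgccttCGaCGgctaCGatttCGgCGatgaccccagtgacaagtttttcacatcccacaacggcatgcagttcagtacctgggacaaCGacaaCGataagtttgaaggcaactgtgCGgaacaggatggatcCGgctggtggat
Trf, intron, chr9:103130181-103130221: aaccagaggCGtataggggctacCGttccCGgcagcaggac
Sept9, intron, chr11:117103603-117103662: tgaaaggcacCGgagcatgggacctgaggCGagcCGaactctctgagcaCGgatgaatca
Arap1, intron, chr7:108511713-108511844: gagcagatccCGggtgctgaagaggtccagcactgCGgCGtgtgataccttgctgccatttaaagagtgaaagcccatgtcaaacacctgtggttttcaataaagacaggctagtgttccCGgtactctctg
Lyl1, coding exon, chr8:87227976-87228022: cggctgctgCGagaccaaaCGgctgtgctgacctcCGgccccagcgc

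The regions of Stat5b and Mtss1 had the smallest adjusted p of all. Stat5b encodes the transcription factor that carries the growth hormone signal to liver genes. Its exonic region of 5 CpGs (chr11:100652062-100652174) was at 81.0, 85.2, 78.5 and 77.2% in P5 replicates 1, 3, 4 and 5, and at 32.7, 38.8, 31.5 and 29.8% in P20 replicates 2 to 5, with no value in replicate 1. All P5 libraries lay far above all P20 libraries, with no overlap. The region fell by 47.3 points (SE 3.76, limma adjusted p = 0.000778), and all 5 CpGs were lower at P20. Without any 1 library its adjusted p was at most 0.00808.

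The region in an intron of Mtss1, a gene of the actin cytoskeleton and cell membrane, held 5 CpGs (chr15:58830682-58830798). It was at 81.3, 76.6, 72.4 and 83.6% in the 4 P5 libraries and at 32.7, 27.1, 32.4 and 30.8% in the 4 P20 libraries with a value. Here too the ages did not overlap, and both ages were tight. The loss was 47.7 points (SE 3.85, limma adjusted p = 0.000778).

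The other large losses were less even among P20 libraries. Arid2, a subunit of a chromatin remodelling complex of the SWI/SNF family, had the largest loss, from 92.7% ± 7.38 (SD, n = 4) to 40.7% ± 22.2 (SD, n = 5). Its P5 values were 84.3, 100.0, 97.6 and 88.7%, and its P20 values were 45.0, 48.3, 12, 27.5 and 70.5%. The ages did not overlap, although P20 replicates 3 and 5 lay far apart. The fall was 52.0 points (SE 9.75, limma adjusted p = 0.0320). An exonic region of Lrrc3 fell by 45.7 points (SE 10.42, adjusted p = 0.0729), but its P20 values were 51.5, 55.9 and 7.8%, and the call was lost in 3 of the 9 fits without 1 library, with an adjusted p of up to 0.160. An exonic region of Vps37b, which encodes a subunit of the ESCRT-I complex of endosomal sorting, fell from 57.9% ± 6.43 (n = 4) to 14.1% ± 6.92 (n = 3), with an adjusted p of 0.0115.

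Among gains, the intronic region of Sept9, a cytoskeletal septin, had the smallest adjusted p of the 5 largest. Its 4 CpGs were at 40.3, 20.3, 29.0 and 32.1% at P5 and at 67.5, 89.2, 76.3 and 68.7% in P20 replicates 1, 2, 3 and 5. The lowest P20 library lay well above the highest P5 library. The gain was 45.0 points (SE 5.93, limma adjusted p = 0.0115).

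In Arap1, a GTPase-activating protein, the intronic region rose by 45.7 points (SE 8.30, adjusted p = 0.0343). P5 replicate 3 was at 14.7% and the other P5 libraries between 42.6 and 51.7%, while the 3 P20 libraries with a value lay between 81.0 and 87.5%. Without 1 of the libraries the adjusted p reached 0.108. An exonic region of AI467606, 5 bases from its start, rose by 49.2 points (SE 8.74, adjusted p = 0.0320). It was at 4.8 and 5.9% in P5 replicates 1 and 3 and at 34.1 and 19.7% in replicates 4 and 5, against 44.7 to 82.8% at P20.

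An intronic region of Sema4d, a semaphorin, was at 10.8 to 32.8% at P5 and 47.4 to 87.7% at P20, a gain of 42.4 points (adjusted p = 0.0483). The call was lost in 3 fits without 1 library, with an adjusted p of up to 0.135. An intergenic region whose nearest start is that of 1810012P15Rik was at 21.5 to 35.9% at P5, and at 75.8, 50.1, 44.0 and 73.8% in P20 replicates 2 to 5. Its P20 replicate 1 came out at 106.3%, which is possible because CpG means were removed before averaging and this library lacks values at some of the CpGs. That call (42.0 points, adjusted p = 0.0794) was lost in 6 of the 9 fits without 1 library, with an adjusted p of up to 0.189.

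**Figure D2:**
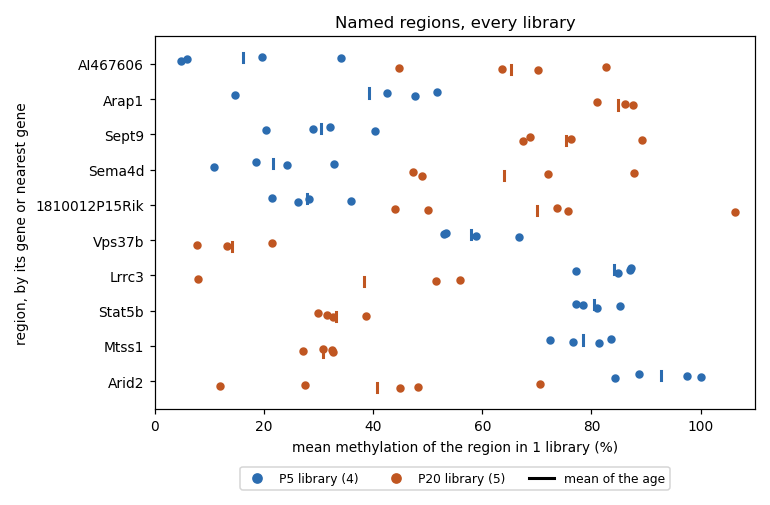
Mean methylation in percent (horizontal axis) of the 5 regions that gained most and the 5 that lost most, 1 row per region. Each point is 1 library, blue for P5 and orange for P20, and the short bars are the means of the age. P5 and P20 points do not overlap in any row, and Stat5b and Mtss1 are the tightest.

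Single CpGs gave fewer calls, and these depended on the full set of libraries. At 66184 CpGs limma called 97 gains (0.147% of all tested) and 60 losses (0.0907%), with a smallest adjusted p of 0.0540, and 7397 CpGs (11.2%) had an unadjusted p under 0.05. No CpG was called when any 1 of the P5 libraries or of P20 replicates 2 to 5 was left out, and 43 were called without P20 replicate 1. With P20 replicates 2, 3 and 5 only, limma also called 0 CpGs, with 6780 at an unadjusted p under 0.05. The largest loss and the largest gain are therefore given below with the value of each library. Other CpGs are given by their range at each age or by their difference alone.

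The largest loss at a CpG with values in all 9 libraries was again in Stat5b. This CpG lies in an intron 2447 bases after the start (chr11:100681395, minus strand cytosine), far from the exonic region above, and is shown within the surrounding bases of the plus strand with the CpG in capitals.
Stat5b, intron: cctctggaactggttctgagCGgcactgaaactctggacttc
It was at 78.3, 100.0, 65.9 and 70.6% at P5 and at 17.6, 4.8, 16.7, 19.2 and 14.8% at P20. The gap between the ages was more than the spread within either. It fell by 64.1 points (SE 6.91, limma adjusted p = 0.0695). All 8 CpGs tested in or near Stat5b were lower at P20, with a mean difference of -43.7 points, and 5 of them were called. None of the 2 CpGs tested for its neighbour Stat5a was lower.

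Other losses chosen in the same way were CpGs in introns of Macrod1, a hydrolase of ADP-ribose groups, and of Zmiz1, a transcriptional coactivator. In Macrod1 (chr19:7196225) P5 values ran from 60 to 77.4% and P20 values from 0.0 to 35.5%, a loss of 49.0 points (SE 7.35, adjusted p = 0.0885). In Zmiz1 (chr14:26327741) they ran from 53.6 to 80% and from 5.6 to 30%, a loss of 48.1 points (SE 6.95, adjusted p = 0.0855). A coding CpG of the autophagy gene Atg16l1 (chr1:89686166) was at 94.4 to 100.0% at P5 and 30.8 to 69.2% at P20. The remaining losses, in or near Trim29, Prdm10, Nphp4, Tns1, Tmcc3 and Lynx1, lay between 35.6 and 41.5 points.

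The largest called gain at a CpG with values in all 9 libraries lay between genes, at -156429 bases from the start of Tll1, a secreted metalloprotease (chr8:66841219). It was at 20.0, 0.0, 25.6 and 0.0% at P5 and at 50, 58.3, 63.3, 78.9 and 80% at P20, a gain of 54.7 points (SE 8.24, adjusted p = 0.0885). A CpG in an intron of the ligand gene Wnt3 (chr11:103659169) went from 29.5 to 45.8% at P5 to 62.5 to 83.6% at P20. A CpG at -23355 bases from the start of Id2, an inhibitor of basic helix-loop-helix factors (chr12:25804312), went from 33.3 to 51.9% to 68.4 to 93.3%. The other gains, in Tuba3a, Tcte2, Gpr183, Fut11, Akap2, Atp5o and Pkp4, lay between 36.9 and 50.7 points.

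Genes of hepatocyte function were read through lists of CpGs inside each gene or up to 5 kb upstream of it. CpGs of secreted plasma proteins were mostly lower at P20. The median difference over 52 CpGs of 19 genes was -18.6 points, beside 2.56 points over all CpGs tested. Of the 52, 38 (73.1%) were lower, beside 38.6% of all CpGs. Fgg alone supplied 12 of the 52, all lower and close together, so these are not separate members of the list. Averaged over the list, the P5 libraries were at 53.7, 54.4, 60.2 and 51.5% and the P20 libraries at 25.1, 37.3, 39.5, 40.3 and 45.4%. No P20 library reached the lowest P5 library, and P20 replicate 1, which has few values, was the lowest. No single CpG of the list was called (0.0907% of all CpGs were called losses). Of its regions, which were only 4, 2 were called losses, beside 1.24% of all regions.

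These 2 regions lie in Fgg, the gamma chain of fibrinogen, and in Trf, transferrin. The Fgg region holds 12 measured cytosines in a coding exon (chr3:82816736-82816909), with both strands of a CpG among them. All 12 were lower at P20. It was at 62.8, 58.5, 81.3 and 65.6% at P5 and at 15.6, 22.1, 35.1, 41.7 and 47.5% at P20, without overlap. It fell by 34.6 points (SE 7.02, limma adjusted p = 0.0373). The Trf region, 567 bases after the start, was at 61.9, 54.7, 37.9 and 43.5% at P5 and at 13.5, 26.0, 20.0 and 20.23% in P20 replicates 2 to 5. It fell by 29.6 points (SE 5.604, adjusted p = 0.0343). Of the genes with no called CpG or region, the differences averaged -24.8 points at 2 CpGs of Ambp, -22.2 points at 2 CpGs of the complement factor Cfb, -20.8 points at 4 CpGs of Fgb and -13.3 points at 3 CpGs of the clotting factor F7. Genes with a higher mean at P20 were Itih4 (by 12.4 points over 2 CpGs), Kng1 (5.43), Vtn (4.36), F12 (4.05), F2 (3.07), Serpina1a (3.04) and Hamp (1.06). The remaining genes of the list were lower on average.

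Enzymes of hepatocyte metabolism had a median difference of -0.247 points over 84 CpGs in 27 genes. By limma no CpG and none of their 9 regions was called, in a list too small to hold more than about 1 call at the shares of all CpGs (0.147% gained and 0.0907% lost) and regions (2.26 and 1.24%). Pck1, the enzyme that commits carbon to gluconeogenesis, differed by -21.0 points over 3 CpGs, while Abcc2, a transporter of bile, differed by 26.0 points over 3 CpGs. Neither passed the test. Fetal liver genes had a median difference of 4.38 points over 85 CpGs, and none of its 14 regions was called. The list held 1 called CpG (beside 0.147% of all CpGs called as gains), in an intron of Zhx2, a repressor of fetal liver genes, from 26.1 to 68.8%. The 5 CpGs of Afp, the fetal serum protein, averaged 25.9% at P5 and 38.4% at P20, and none was called.

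Liver transcription factors moved both ways. Of their 31 regions 3 gained (9.68%) and 2 lost (6.45%), beside 2.26% and 1.24% of all regions. Tbx3, a T-box factor of the hepatoblast, gained in 2 regions near its start. The larger, with 10 CpGs, went from 25.4% ± 7.99 (SD, n = 4) to 55.7% ± 8.74 (SD, n = 4), a gain of 30.3 points (SE 5.57, adjusted p = 0.0320), and all 10 CpGs were higher. Nr2f2, an orphan nuclear receptor, gained 21.3 points in a region of 5 CpGs (adjusted p = 0.0908). Foxa3, a forkhead factor of hepatocytes, lost 17.7 points in an exonic region (adjusted p = 0.0899), and all 10 CpGs of the gene were lower. The other loss was the exonic region of Stat5b.

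The list of growth hormone, insulin and IGF signalling held 103 CpGs and 11 regions. Its 5 called CpGs and 1 called region, all losses, were those of Stat5b, beside 0.0907% of CpGs and 1.24% of regions called as losses over all. Socs2, a feedback inhibitor of the same pathway, had 1 tested CpG at 89.7% at P5 and 50.6% at P20, which was not called. All 7 CpGs of the insulin receptor gene Insr were lower at P20, by 11.8 points on average, and none was called. Other members without a call were higher on average, by 33.2 points at 1 CpG of Pik3r1, a subunit of the kinase that carries the insulin signal, by 13.8 points over 2 CpGs of the binding protein gene Igfbp3 and by 9.52 points over 5 CpGs of the kinase gene Akt1. The median difference of the list was -0.379 points.

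Of 33 regions of haematopoietic markers 4 gained (12.1%, beside 2.26% of all regions) and 0 lost (beside 1.24%, a share at which few losses would be found among so few regions). Of the 308 CpGs 117 (38.0%) were lower at P20, beside 38.6% of all CpGs. The ages did not overlap at 17 CpGs that were higher (5.52%, beside 5.16% of all CpGs) and at 4 that were lower (1.3%, beside 2.08%), the latter in Runx1, Runx3, Cbfa2t3 and Meis1. These shares of single CpGs were near those of all CpGs. The Lyl1 region, in a coding exon of this regulator of blood stem cells and overlapped by Nfix, was at 27.3, 21.2, 7.9 and 20.6% at P5 and at 41.0, 53.8, 56.9 and 66.7% at P20, a gain of 35.4 points (SE 6.06, adjusted p = 0.0302). The region of Meis1, a homeobox regulator of the same cells, is Gm16141 by the naming rule above. It went from 9.17% ± 2.26 (n = 4) to 43.5% ± 17.1 (n = 3), with an adjusted p of 0.0554. A region of Prtn3, a neutrophil protease, within 5 kb upstream of Elane, gained 32.2 points (adjusted p = 0.0664). A region beside the start of the platelet gene Gp1bb (Sept5 by the naming rule) gained 22.95 points (adjusted p = 0.0801), although there the ages overlapped. Of the 308 CpGs 1 was called, a gain in the B cell gene Cd79b from 8.29 to 44.2%, beside 0.147% of all CpGs called as gains. The median difference over all 308 CpGs of the list was 3.09 points, beside 2.56 points over all CpGs.

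The mean per library did not overlap between the ages in 3 further lists, all higher at P20. Haematopoietic markers were at 38.7 to 42.9% in the P5 libraries and 43.5 to 46.4% in the P20 libraries, liver transcription factors at 34.9 to 38.5% and 39.9 to 40.8%, and cell cycle genes at 48.0 to 50.9% and 52.2 to 58.0%. All CpGs tested were also higher at P20 on average, at 52.8 to 57.0% and 56.5 to 58.8%, with overlap. The means of these lists differed by 4.06, 3.86 and 4.82 points and that of all CpGs by 2.82 points, and whether the lists differ from all CpGs was not tested.

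**Figure D3:**
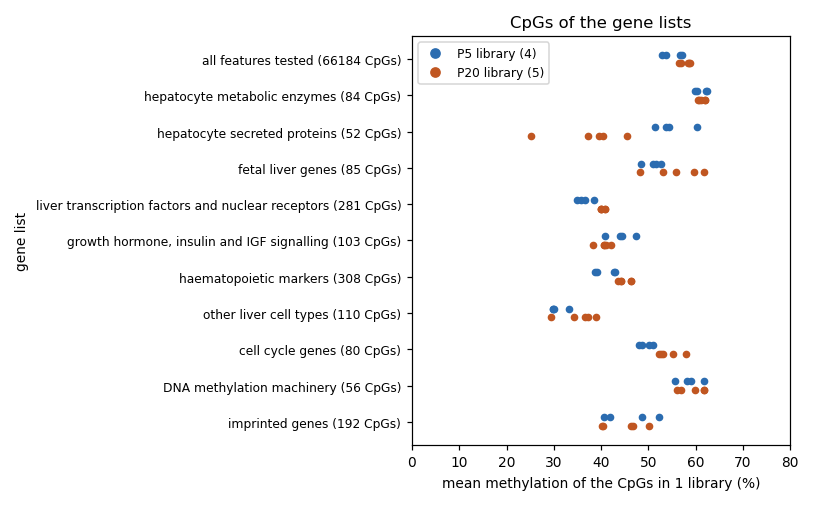
Mean methylation in percent (horizontal axis) of the CpGs of each gene list, with P5 libraries in blue and P20 libraries in orange, 1 point per library. The list of hepatocyte secreted proteins is the one in which all P20 libraries lie far to the left of the P5 libraries, at 25.1 to 45.4% against 51.5 to 60.2%.

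The remaining lists held few regions. In the cell cycle list 1 of 12 regions was called (8.33%, beside 2.26% of all), a gain in an intron of the cyclin gene Ccnd3 from 28.1% ± 13.5 (n = 4) to 61.4% ± 7.52 (n = 4), with an adjusted p of 0.0440. Among genes of the methylation machinery 1 of 8 regions was called as a loss (12.5%, beside 1.24% of all). This region, in an intron of Tet2, one of the oxidising enzymes, fell from 38.6% ± 14.95 (n = 4) to 11.5% ± 3.03 (n = 4), with an adjusted p of 0.0818, and 1 of its CpGs was called (41.7 points lower, adjusted p = 0.0855). Imprinted genes had no call in 192 CpGs and 24 regions, and other liver cell types none in 110 CpGs and 9 regions. Lists of this size would hold at most about 1 call at the shares of all CpGs (0.147 and 0.0907%) and regions (2.26 and 1.24%).

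The lists also served to check the tissue label. At CpGs within 1 kb of a start of the secreted protein genes, P20 liver was at 25.8% and P20 heart at 72.4% (9 CpGs of 6 genes), and P20 liver was at 17.6% and P20 muscle at 43.1% (7 CpGs of 5 genes). Haematopoietic markers were at 34.6% in P20 liver and 23.9% in heart (46 CpGs of 13 genes), and at 24.7% in P20 liver and 15.6% in muscle (25 CpGs of 8 genes). CpGs near metabolic enzymes did not mark the liver by lower methylation. They were at 50.8% in P20 liver and 49.1% in heart (26 CpGs of 11 genes), and at 60.3% in P20 liver and 51.9% in muscle (30 CpGs of 10 genes), where the liver libraries (56.3 to 66.7%) were higher than the muscle libraries (49.4 to 56.0%) without overlap. Markers of other liver cell types were at 26.8% in P20 liver (16.0 to 46.7%) and 26.3% in heart (25 CpGs of 8 genes), and at 24.8% in P20 liver and 28.9% in muscle (20 CpGs of 7 genes), and so did not set the tissues apart. Near secreted protein genes, the P20 liver libraries (20.1 to 32.1%) did not overlap the heart libraries (62.3 to 94.2%).

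Called regions lay on every autosome and in all genic contexts. Of 92 losses 41.3% lay in introns and 20.7% between genes, beside 31.1% and 34.3% of all regions, and 166 annotated gains had 29.5% in introns and 34.3% between genes. Promoters, the 1000 bases before a start, held 7.83% of gains, 8.7% of losses and 7.86% of all regions. Losses lay in sequence of lower CpG density, with a median of 9.5 CpGs within 200 bases on either side, beside 12 in gains and in all regions.

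Short motifs of liver and blood factors were counted within 100 bases on either side of the middle CpG of each region, on both strands. The HNF1 motif GTTAAT was present in 8.7% of losses, 3.01% of gains and 4.04% of all regions. The C/EBP motif TTGCNNAA was present in 13, 3.01 and 7.02%, the FOXA motif TGTTTAC in 5.43, 1.2 and 2.41%, and the HNF4A motif CAAAGTC in 5.43, 0.602 and 2.99%. The FOXA and HNF4A shares of losses rest on 5 regions each, and those of gains on 2 and 1. The PU.1 motif GAGGAA, read by a factor of blood cells, went the other way, at 12, 24.7 and 18%. The STAT5 motif TTCNNNGAA (7.61, 6.02 and 4.88%), the GATA motif AGATAA (6.52, 5.42 and 6.42%) and the E-box CANNTG (69.6, 65.1 and 65.8%) were also counted. The MspI site CCGG, where the fragments are cut, was present in 98.2 to 100.0%. These shares are a description of the letters in these windows and were not tested. The median GC content was 51.6% around losses, 55.5% around gains and 53.6% around all regions. Its part in the motif shares was not tested.

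Whole libraries were compared by their mean and by the shape of their distribution. Mean methylation over the 12186 complete CpGs was 50.6, 53.3, 52.9 and 49.3% in P5 replicates 1, 3, 4 and 5 and 52.3 to 54.6% at P20. The difference of 2.12 points was not past the test (two-sided exact permutation p = 0.0635, adjusted p = 0.111 over 3 measures). The upper methylation level, where values above 50% were densest, was 86.6% ± 6.62 (SD, n = 4) at P5 and 93.4% ± 3.04 (SD, n = 5) at P20 (exact p = 0.0873). Without P5 replicate 3 the mean differed by 2.72 points (exact p = 0.0357) and the upper level by 9.86 points (exact p = 0.0179). These were the largest differences among the fits without 1 library, whose ranges are given in the last section. Fully methylated values made up 4.00% ± 2.98 at P5 and 9.01% ± 4.5 at P20 (exact p = 0.111). Within P20 this share rose as values became fewer, at 3.74, 5.74, 8.9, 11.7 and 14.9% in replicates 3, 5, 2, 4 and 1. The upper level rose in the same order, from 89.98 to 97.2%. P5 replicate 3, with the fewest P5 values, was highest at P5 (8.21 and 96.0%), but the other P5 libraries did not follow this order. With P20 replicates 2, 3 and 5 only, the share differed by 2.13 points (exact p = 0.343). The part of coverage in these differences was not tested.

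Values between 20 and 80% were fewer at P20. They made up 48.5, 42.7, 46.3 and 49.0% of values in the 4 P5 libraries and 39.3 to 41.0% in the 5 P20 libraries, without overlap. The difference of -6.26 points had an exact permutation p of 0.00794, the smallest that 126 permutations allow, and an adjusted p of 0.0714 over 9 measures of this kind. This measure was added after the values had been seen. P20 replicates 1 and 4, with the fewest values, were at 39.3 and 39.8%, and replicates 2, 3 and 5 at 40.8, 40.9 and 41.0%.

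The P5 libraries were not detectably more or less alike than the P20 libraries. The root mean square difference between 2 libraries averaged 16.8 points over the 6 P5 pairs (13.5 to 18.9) and 17.8 points over the 10 P20 pairs (13.8 to 21.0), with an exact permutation p of 0.651. The sign of this difference turned without P5 replicate 1 (0.233 points, exact p = 0.929) and without P20 replicate 1 (0.0933 points, exact p = 0.971). P5 with P20 pairs averaged 18.7 points. Among P5 libraries, replicates 1 and 5 were closest (13.5 points, Pearson r = 0.914 across CpGs), and replicate 3 was farthest from the rest (18.4 points on average). P5 replicate 3 also had the fewest values at P5 (97.2% of tested CpGs). Among P20 libraries this mean distance rose as values became fewer, from 16.1 points in replicate 3 to 19.4 points in replicate 1. The part of coverage in the spread was not tested. The median SD of a CpG was 9.08 points at P5 and 9.94 points at P20.

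The CpGs that varied most at P5 covered nearly the whole scale within the age. In an intron of Pknox2 (chr9:36952114) P5 replicate 3 was at 100.0% and the others at 6.7, 24.2 and 8.1%. In an intron of Slc10a7 (chr8:81184092) replicate 4 was at 0.0% and the others at 90.6, 62.5 and 100.0%. Near the start of Slc15a3 (chr19:10916848) replicate 4 was at 88.6% and the others at 15, 7.0 and 10.3%. These CpGs were chosen for their spread, and the values are a description.

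Each library was also placed between younger and older livers. The position was measured with 5000 CpGs chosen on other livers, by comparing E18.5 and P1 with P10 and P15, so that the mean of the first was 0% and that of the second 100%. P5 replicates 1, 3, 4 and 5 stood at 36.2, 58.1, 52.1 and 28.6%. The P20 libraries stood at 81.5 to 97.4%. The mean rose from 43.8% ± 13.7 (SD, n = 4) to 89.5% ± 6.35 (SD, n = 5), a difference of 45.7 points (two-sided exact permutation p = 0.00794, the smallest possible). The E18.5, P1, P10 and P15 libraries chose the CpGs, so their positions of about 0 and 100% are no result.

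The P5 libraries had a larger SD of position on the CpGs that gained than on those that lost. On the 4542 gaining CpGs, P5 replicates 1, 3, 4 and 5 stood at 34.5, 58.5, 52.7 and 26.1% (SD 15.2). On the 458 losing CpGs the same libraries stood at 52.0, 54.3, 46.7 and 51.5% (SD 3.19). P20 libraries stood at 86.9% ± 7.39 on gains and 110.5% ± 4.74 on losses, and P5 and P20 differed on each (exact p = 0.00794 both times). Whether the P5 spread itself differs between gains and losses was not tested. The upper methylation level moved with it, at 83.4, 96.0, 86.3 and 80.9% in the same 4 libraries, and its part in the positions was not tested. On 694 gaining CpGs that stay under 50% at P10 and P15, the P5 libraries stood at 26.9, 51.2, 51.9 and 19.1%.

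**Figure D4:**
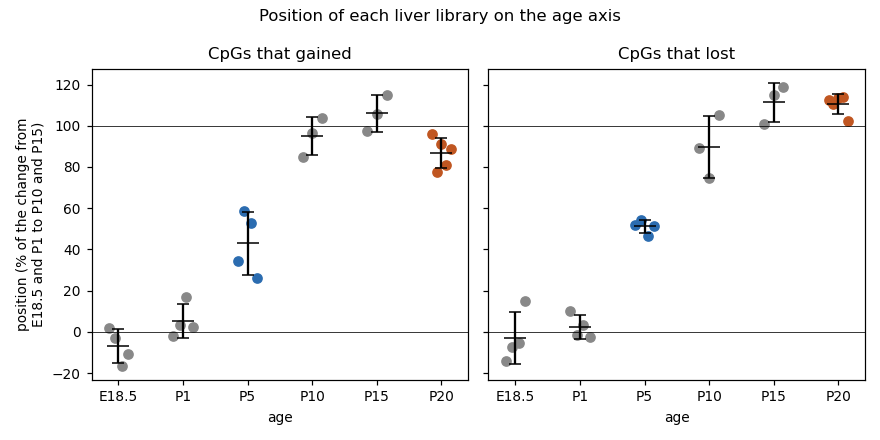
Position of each liver library on the axis from E18.5 and P1 (0%) to P10 and P15 (100%), at CpGs that gained (left) and lost (right), by age. Points are libraries, bars are means with SD, blue marks P5 and orange P20. P5 libraries run from 26.1 to 58.5% on gains but only from 46.7 to 54.3% on losses.

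Regions called between P5 and P20 were then read at the other liver ages, which played no part in the calls. From E18.5 through P1, P5, P10 and P15 to P20, the 167 gains averaged 28.9, 31.0, 34.6, 47.3, 53.2 and 61.4%. The 92 losses averaged 58.2, 58.3, 55.1, 48.7, 39.7 and 27.1% at the same ages. P10 and P15 thus lay between P5 and P20 in both directions. Between P1 and P15, neither of which chose the regions, gains differed by 22.3 points and losses by -18.7 points (exact permutation p = 0.0286 each, the smallest that 35 permutations allow).

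**Figure D5:**
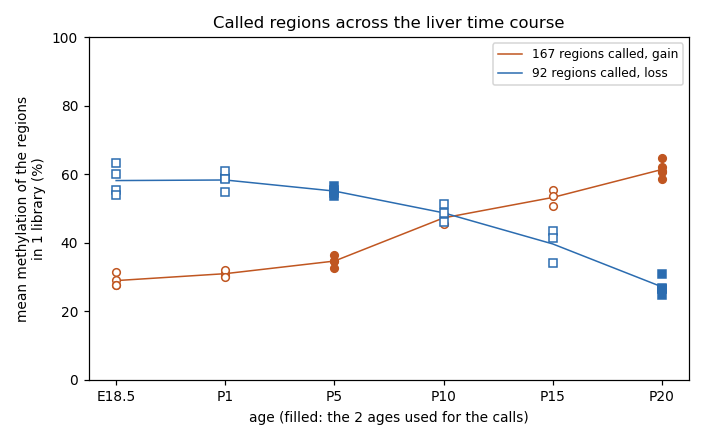
Mean methylation in percent (vertical axis) of the 167 called gains (orange circles) and the 92 called losses (blue squares) in each liver library, by age, with lines through the means. Filled symbols are the P5 and P20 libraries that made the calls. Both sets change little from E18.5 to P1 and cross near P10.

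Heart and muscle of the same ages showed no call. Heart had 4 P5 and 5 P20 libraries and muscle 3 and 4. Liver too had no called CpG with 1 P5 library left out. The absence of called CpGs in muscle therefore does not set it apart from liver. By limma 0 of 44538 heart CpGs and 0 of 3698 heart regions passed (0%), with 2913 CpGs and 275 regions at an unadjusted p under 0.05. In muscle 0 of 28996 CpGs and 0 of 2269 regions passed (0%), with 1686 and 156 at an unadjusted p under 0.05. At 17 regions called as gains in liver with a value in every heart library, heart was at 40.8% ± 2.18 at P5 and 42.5% ± 2.83 at P20 (exact permutation p = 0.365), where liver went from 38.8 to 60.9%. At 47 such regions muscle was at 35.3% ± 1.28 and 34.3% ± 1.90 (exact p = 0.457). At called losses the differences were 5.66 points in heart (8 regions, exact p = 0.119) and -3.41 points in muscle (24 regions, exact p = 0.400).

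The difference between tissues was tested itself, as an interaction of tissue and age. It passed at 23 of 3698 regions for heart (0.622%) and at 18 of 2269 for muscle (0.793%), and at 1 of 34043 CpGs for heart (0.00294%) and 30 of 21977 for muscle (0.137%). Of these regions 18 and 13 were also called in liver, which is no independent support because both tests use the liver values. Replicate numbers recur between the tissues, so some libraries may come from the same mice. The interaction fit treated all libraries as independent. The Stat5b exonic region fell by 47.3 points in liver, while muscle was at 20.8% at P5 and 39.6% at P20 (difference between tissues -66.0 points, adjusted p = 0.00360). In heart it was at 53.9% at P5 and 42.1% at P20, and the difference from liver did not pass (-35.6 points, adjusted p = 0.170). The Sept9 region was at 79.6 and 73.0% in muscle and at 63.1 and 56.0% in heart, and differed from liver in both (adjusted p = 0.0897 and 0.0747).

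Locus-specific bisulfite sequencing (LSBS), in which chosen fragments are amplified and sequenced, gave 11 amplicons in 5 P5 and 6 P20 livers. Their labels carry the same names as the RRBS libraries except for 1 liver at each age, so most are not further animals. Of the 11 amplicons 8 differed between the ages at an adjusted p of at most 0.05 by a two-sided exact permutation test, 4 higher and 4 lower at P20. The loss was largest near Srp14 on chromosome 2 (chr2:118336266-118336475, 14 CpGs), from 48.3% ± 4.62 (SD, n = 5) to 25.1% ± 3.07 (SD, n = 6). The 10 CpGs upstream of Klf9, a hormone-responsive Krüppel-like factor (chr19:23211054-23211261), fell from 18.2% ± 2.56 to 7.84% ± 3.30.

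Gains were seen upstream of Otx1, a homeobox gene (19.1% ± 3.53 to 39.2% ± 4.48), upstream of Rab3a, a GTPase of vesicle release (10.9% ± 4.24 to 27.6% ± 1.91), and upstream of Dusp4, a phosphatase of MAP kinases (4.57% ± 0.703 to 18.7% ± 1.54), each with an exact p of 0.00216 and an adjusted p of 0.00595. Of the amplified CpGs 11 in 4 amplicons were also in the RRBS table. At the 3 shared CpGs near Rab3a, LSBS was at 22.2, 25.3 and 16.6% at P5 and 56.2, 59.1 and 41.7% at P20, and RRBS at 2.45, 3.31 and 1.64% and 19.2, 16.3 and 17.0%. Both assays were higher at P20 on average there, at different levels. At P20 the RRBS values ran from 0% in replicate 2 to between 40 and 46.7% in replicate 5, and the ages overlapped. At the 4 shared CpGs near Rap1b, where LSBS was lower at P20, RRBS was lower at 2 and higher at 2 (3.57 to 4.76% and 3.61 to 5.84%). These higher RRBS values lie near the floor, with libraries at 0% at both ages, so their direction is uncertain. At the 3 shared CpGs of an amplicon on chromosome 18, both assays were higher at P20. At the single shared CpG near Klf9 both were lower, from 16.9 to 7.19% in LSBS and from 5.09 to 2.01% in RRBS.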

How the data were processed

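RRBS values were the methylation fractions the authors deposited (the methylated part of the reads at each CpG, without normalization), given here as percent. Per the study's methods, reads were aligned to mm9 with Bismark 0.7.6 and bowtie2, values under 10 reads were set to missing, and CpGs missing in over 20% of samples or under 10% methylated in all were removed. LSBS fractions were deposited by the authors in the same unit, and CpGs under 100 reads had been discarded. Read counts per CpG were not used here, so the depth of single values is unknown and no binomial interval is given. Tables on mm10 served as an alternative, and 13 further table columns were left unused.

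P5 and P20 were compared with limma 3.58.1 in R 4.3.3 on fractions, per CpG with at least 3 values at each age, and per region after removing CpG means. Calls needed an adjusted p (Benjamini-Hochberg) no greater than 0.1 with more than 5 percentage points between the means. Libraries are separate samples with no stated pairing, and p-values measure the spread between them. Single values per library were compared by two-sided exact permutation tests. CpGs were annotated with GENCODE vM1 on mm9; of the tested CpGs, 33099 are plus and 32932 minus strand cytosines of that sequence, and 153 could not be placed. Named CpGs were, among called ones with 9 values and no overlap of the ages, the 10 largest gains and 10 largest losses, at most 1 per kb; named regions were the 5 largest of each direction; chromosome 18 was left out of the named items; the CpGs most variable at P5 were the 5 with the largest SD. List genes are named from called CpGs and regions; other list genes given with values were chosen after these were seen. The members, lists and tests were chosen with earlier results of these data known. Procedures were tested on simulated data. Alternatives covered missing values, scale, test, libraries in the fit, region definition, build and each library left out.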

Additional observations from a re-analysis of the deposited data

Results flagged for a closer look

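Among 104 groups of 4 or 5 libraries examined for a library far from the others, 3 (2.88%) were picked out, and chance picks about 1 in 20. At the CpG nearest Trim29, P5 replicate 5 was at 71.9% and the other P5 libraries between 76.9 and 77.6%. At the CpG of Prdm10, P20 replicate 5 was at 43.3% and the other P20 libraries between 26.7 and 30.8%. In the list of other liver cell types, P5 replicate 3 averaged 33.1% and the other P5 libraries 29.9 to 30.1%.

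The change with age differed between liver and heart at 23 regions and 1 CpG, and between liver and muscle at 18 regions and 30 CpGs, by the interaction term. Of the named regions, Sept9 changed by 52.0 points more in liver than in heart and by 51.5 points more than in muscle. Arap1 changed by 49.6 points more in liver than in heart. The exonic region of Stat5b changed by -66.0 points relative to muscle.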

How the results depend on the processing

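At single CpGs, the count of 157 calls became 3 on the logit scale, 17 with an unmoderated model and Storey q-values, 370 with array weights, 1252 with all liver ages in the fit, 0 when the adjusted p had to reach 0.05, and 0 with P20 replicates 2, 3 and 5 only, a setting chosen after seeing the data. Leaving out 1 library gave 0 to 43. The 259 calls in 7395 regions became 144 calls in the 1856 regions with at least 5 CpGs. They became 433 with all liver ages (added after seeing the data), and 106 to 252 without 1 library. The interaction counts at CpGs were 0 for heart and 0 for muscle on the logit scale. Without 1 library, the difference in mean methylation ran from 1.37 to 2.72 points (exact permutation p = 0.0357 at the highest, without P5 replicate 3) and that in the upper level from 4.82 to 9.86 points (exact p = 0.0179, also without P5 replicate 3). The upper level differed by 4.26 points without values of exactly 1 (exact p = 0.0476). The difference in spread ran from -2.69 to 0.233 points without 1 library, being 0.0933 points without P20 replicate 1, and turned to 1.35 points with P20 replicates 2, 3 and 5 only (exact p = 0.543). The causes were not tested. With the replicate number as a block, 0 CpGs and 0 regions were called; deviations of same-numbered libraries correlated at -0.0203 to 0.00501, none highest with its own number, so the numbers do not pair the samples. Named CpGs kept their direction in all 400 alternatives and lost the call in 255; named regions kept it in all 120 and lost the call in 23. Read depth per value is unknown and limits single CpGs most.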
